A study of Homo sapiens with 14 samples.

Results

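BMI1 binding was mapped by chromatin immunoprecipitation followed by sequencing in DU145 cells, an established line from a human prostate cancer, after a stable knockdown of EED. Every region on the 2 deposited BMI1 peak lists was taken, 6257 from EED knockdown cells and 20775 from control cells with a scramble construct. These 27032 peaks are part of the 227479 that the 14 lists of the series hold for 7 antibodies. Both cell populations had been selected with puromycin and were precipitated with the same rabbit antibody to BMI1. The knockdown libraries all carry the construct label sh3, so the effects of EED and of the construct itself cannot be told apart. Each condition had 1 BMI1 library, so differences have no replicate check and no p-value is given. Positions are hg19, and regions are named by position because no annotation of hg19 genes was used.

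BMI1 is a subunit of Polycomb repressive complex 1 (PRC1), in which it pairs with RING1A or RING1B, the ubiquitin ligases that place ubiquitin on histone H2A (uH2A). EED is a core subunit of PRC2, the complex that methylates histone H3 at lysine 27 (H3K27me3). One class of PRC1 is known to reach chromatin by reading H3K27me3, and other classes are recruited without it. BMI1 has been studied widely as a factor that maintains stem and cancer cells, among them those of the prostate.

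The EED antibody itself gave 1372 peaks in knockdown cells and 13082 in control cells. Levels of EED protein or transcript were not analysed here. The sources used here state no read totals, so depth is unknown, and fewer bound sites cannot be told apart from less signal at each site. The 95% intervals below are exact Clopper-Pearson intervals for shares, exact conditional intervals for ratios and Newcombe intervals for differences of shares. They cover counting error only and treat peaks as independent, which clustered peaks are not.

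Most BMI1 sites of control cells had no peak in knockdown cells, and the sites that stayed were mostly the long and tall ones. A control peak was called kept when it shared at least 1 bp with a knockdown BMI1 peak. Of 20775 control peaks, 4387 were kept (21.1%, interval 20.6 to 21.7) and 16388 were lost (78.9%). Of 6257 knockdown peaks, 4692 lay on a control peak and 1565 were new (25.0%, interval 23.9 to 26.1). The knockdown to control ratio was 0.301 for the number of peaks (0.293 to 0.310) and 0.357 for the length they covered, 1308 kb in knockdown cells and 3662 kb in control cells. The knockdown list was thus reduced more in number than in covered length.

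Knockdown peaks were somewhat longer than control peaks. Their median length was 150 bp in knockdown cells (quartiles 100 and 250 bp) and 125 bp in control cells (quartiles 100 and 200 bp). The longest peak measured 2700 bp in knockdown cells and 5100 bp in control cells, and the shortest 75 bp in both. Peaks of 75 bp made up 15.3% of the knockdown list and 22.2% of the control list. The ratio of peak numbers was 0.208 at 75 bp (958 knockdown and 4613 control peaks), 0.376 at 175 to 250 bp (1780 and 4732) and 0.488 at 525 to 1000 bp (257 and 527). Shorter peaks were therefore the more strongly reduced class.

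The share kept climbed with the length of the control peak over the whole range. It was 2.95% of 4613 peaks at 75 bp (2.48 to 3.48), 5.39% at 100 bp and 11.9% at 125 to 150 bp. It was 31.2% at 175 to 250 bp, 64.2% at 275 to 500 bp and 89.4% at 525 to 1000 bp. Beyond 1000 bp, 132 of 134 control peaks were kept (98.5%, 94.7 to 99.8). A longer peak can meet another peak more easily, so part of this gradient is built into the count. New peaks ran the other way: 43.0% of knockdown peaks of 75 bp were new, 19.7% of those of 175 to 250 bp and none of the 59 beyond 1000 bp.

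Peak height, the signal that the authors' caller wrote for each peak, gave a similar order. Of the control peaks with a height, 3.31% were kept in the lowest of 4 equal classes, 5.66% in the next, 12.7% in the one above and 57.8% in the highest (56.4 to 59.2). The median length also climbed over these classes, with 75, 100, 150 and 250 bp, so height and length were not separated. Kept control peaks had a median length of 250 bp and a median height of 106, and lost ones 125 bp and 66.0. New knockdown peaks resembled the lost peaks in size, with a median length of 125 bp and a median height of 58.0.

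Where a site was kept, the knockdown peak was mostly the smaller. In 3974 cases exactly 1 knockdown peak met exactly 1 control peak. The knockdown peak was shorter in 2833 of these pairs (71.3%), equal in 398 and longer in 743, with medians of 175 bp in knockdown cells and 225 bp in control cells. Of the 3485 pairs with a height, 3172 had the lower height in knockdown cells (91.0%), with medians of 69.3 in knockdown cells and 102 in control cells. Heights were not normalised between the libraries, and the part of depth in this difference was not tested. Summits stayed in place, at a median distance of 24.0 bp, and within 50 bp in 75.0% of pairs.

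Some long control peaks were met by several knockdown peaks. Of the kept control peaks, 4087 met 1 knockdown peak, 245 met 2, 43 met 3 and 12 met 4 or more. The longest of all, chr15:22040126-22045225 with 5100 bp, met 7 knockdown peaks. A peak of 4300 bp at chr5:34189351-34193650 met 2. Breaks of this kind raise the number of knockdown peaks without adding sites.

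Lost and new peaks differed in how far they lay from the other list. Lost control peaks had a median gap of 53550 bp to the nearest knockdown BMI1 peak, and 10.3% had one within 1000 bp. New knockdown peaks had a median gap of 2125 bp to the nearest control peak, and 35.9% had one within 1000 bp. Most losses were therefore of sites with no BMI1 peak left nearby, whereas many new peaks were close neighbours of an existing site. The control list is the denser of the pair, which by itself shortens the gaps measured to it.

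A height of 0 is read here as a missing value rather than a low one, from where it occurs. It was listed for 823 knockdown peaks (13.2%) and 1449 control peaks (6.97%). All of them lay on chromosomes 22, X and Y, and every BMI1 peak on those chromosomes had it. The RING1A, RING1B and H3K27me3 lists had the same pattern in both conditions, and the EED and uH2A lists had heights above 0 there. These peaks were not short, with a median of 175 bp in both lists, against 150 bp in knockdown cells and 125 bp in control cells on the other chromosomes. Of the 1449 control peaks without a height, 38.0% were kept (35.5 to 40.5), and of the 19326 with one, 19.9% (19.3 to 20.4). Of the knockdown peaks, 31.6% of those without a height were new and 24.0% of those with one. They were counted in all results except those on height. The knockdown peaks among them also entered an alternative based on control height, given at the end.

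BMI1 peaks lay in clusters in both conditions, and more so in knockdown cells. The median gap to the next BMI1 peak of the same list was 1025 bp in knockdown cells and 2450 bp in control cells. Peaks were joined into clusters where neighbours lay within 10 kb. Single peaks made up 22.2% of the knockdown list and 31.6% of the control list. Clusters of at least 20 peaks numbered 55 in knockdown cells, with 2313 peaks (37.0% of the list), and 115 in control cells, with 4748 peaks (22.9%). The knockdown list thus held fewer large clusters, which took a larger share of it.

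The share kept climbed with cluster size. It was 6.25% of 6556 single control peaks (5.68 to 6.87), 11.0% in pairs, 16.1% in clusters of 3 to 5, 21.3% in clusters of 6 to 10 and 29.9% in clusters of 11 to 19. In clusters of at least 20 it was 46.4% of 4748 peaks (45.0 to 47.9). Peaks in these clusters were also longer, with a median of 200 bp against 100 bp for single peaks, and taller, with a median height of 86.8 against 66.8 for all peaks in smaller clusters. The same order held for the RING proteins: RING1A kept 10.1% of its control peaks in such clusters and 0.920% of its single peaks, and RING1B kept 31.6% and 6.65%.

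Individual clusters differed widely. Joining both lists gave 124 clusters with at least 20 BMI1 peaks in either condition, which held 3245 knockdown and 5197 control peaks. In 44 of them the knockdown to control ratio was 0.8 or more, and in 33 it was 0.2 or less. Of the 31 such clusters on chromosomes 5, 14 and 18, 19 had a ratio of 0.2 or less, as did 14 of the 93 on the other chromosomes. These chromosomes and the clusters named next were chosen after their counts had been seen.

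**Figure D1:**
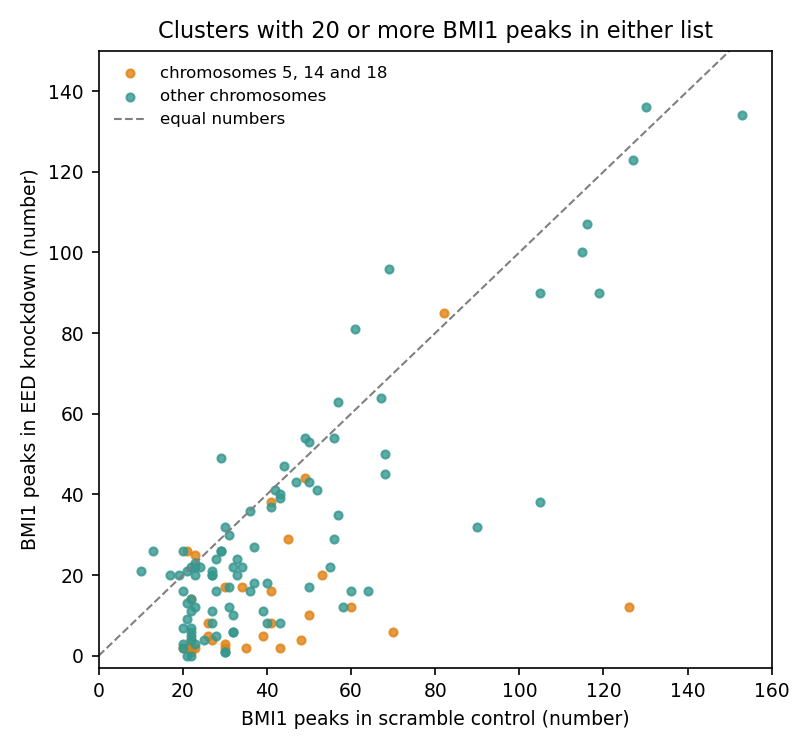
Each point is a cluster with at least 20 BMI1 peaks in either list, with its number of peaks in scramble control on the horizontal axis and in EED knockdown on the vertical axis. Points near the dashed line of equal numbers kept their density of peaks, and points along the bottom are clusters of control cells with few or no knockdown peaks. The cluster on chromosome 18 with 12 knockdown and 126 control peaks is the orange point at the lower right.

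Several of the clusters with the most peaks in both lists together were nearly as dense in knockdown cells. Knockdown peaks entered this ranking, which by itself favours clusters that stayed dense. At chr15:20344701-20578675 there were 134 knockdown and 153 control peaks, and 64.7% of the control peaks were kept. At chr4:49139026-49337125 there were 136 knockdown and 130 control peaks, with 80.0% kept. A cluster on chromosome Y (chrY:58820676-58917475) had 123 knockdown and 127 control peaks, with 82.7% kept. At chr8:86726501-86840825 there were more peaks in knockdown cells, 96 against 69 in control cells, and 69 of 69 control peaks were kept. Similar density did not mean identical peaks, since the cluster on chromosome 4 also had 27 new peaks.

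Other large clusters held far fewer peaks in knockdown cells. At chr18:34829701-35056875 there were 12 knockdown and 126 control peaks, and 7.94% of the control peaks were kept. At chr15:22382776-22579525 there were 38 knockdown and 105 control peaks, with 25.7% kept. At chr7:102205076-102331300 there were 32 knockdown and 90 control peaks, with 27.8% kept. The ratios of these last clusters lie above that of the whole list, and only the cluster on chromosome 18 lies far below it.

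Both RING proteins had few knockdown peaks where BMI1 did. Where BMI1 stayed dense, only RING1A stayed near its total number of control peaks. In the 44 clusters with a BMI1 ratio of 0.8 or more, RING1A had 1730 knockdown and 1645 control peaks in all, with more knockdown peaks in 21 clusters and fewer in 22. RING1B had 910 knockdown and 1934 control peaks in the same 44, with fewer knockdown peaks in 39. At chr15:20344701-20578675, for example, RING1B had 10 knockdown and 143 control peaks and RING1A 108 and 114. In the 33 clusters with a BMI1 ratio of 0.2 or less, RING1A had 118 knockdown and 1613 control peaks, with fewer in 33 of 33, and RING1B 6 and 179. RING1B peaks were therefore fewer in knockdown cells in both kinds of cluster. Over the whole lists the knockdown to control ratio was 0.0727 for RING1A and 0.337 for RING1B.

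H3K27me3 peaks were mostly more numerous in knockdown cells in the clusters that stayed dense, while the whole H3K27me3 list had 4205 knockdown and 35368 control peaks. The 44 clusters held 1969 knockdown and 901 control H3K27me3 peaks, with more in knockdown cells in 40 and fewer in 4. The chromosome Y cluster was among those with fewer, with 129 and 133. The widest contrasts were chosen after their values had been seen. The chromosome 15 cluster with 134 knockdown BMI1 peaks had 77 H3K27me3 peaks in knockdown cells and 2 in control cells. A cluster at chr21:11021726-11186850, with 107 knockdown and 116 control BMI1 peaks, had 92 and 4. A cluster at chr14:19530001-19703600, with 85 knockdown and 82 control BMI1 peaks, had 63 and 1. In the 33 clusters with a BMI1 ratio of 0.2 or less there were 29 knockdown and 214 control H3K27me3 peaks in all. By cluster, 9 had more in knockdown cells, 15 had equal numbers and 9 had fewer. No input library was used that would show the signal of such places without an antibody.

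Chromosomes differed in how many BMI1 peaks they had in knockdown cells relative to control cells. Chromosome Y had 380 knockdown and 408 control peaks, a ratio of 0.931 (0.808 to 1.07), and chromosome X 122 and 145, a ratio of 0.841 (0.656 to 1.08). Intervals of both include 1. Similar numbers did not mean the same peaks: chromosome X kept 46.9% of its control peaks, and 45.1% of its knockdown peaks were new. On chromosome Y, 313 of the control peaks lay in clusters of at least 20. The lowest ratio was on chromosome 18, 0.0970 (0.0791 to 0.118), with 112 knockdown and 1155 control peaks. Chromosome 6 followed with 0.112 (65 and 582 peaks), then chromosome 11 with 0.145 (53 and 366) and chromosome 5 with 0.153 (323 and 2117). The share of control peaks kept ran from 6.41% on chromosome 18 (5.06 to 7.98) to 62.3% on chromosome Y (57.4 to 67.0).

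**Figure D2:**
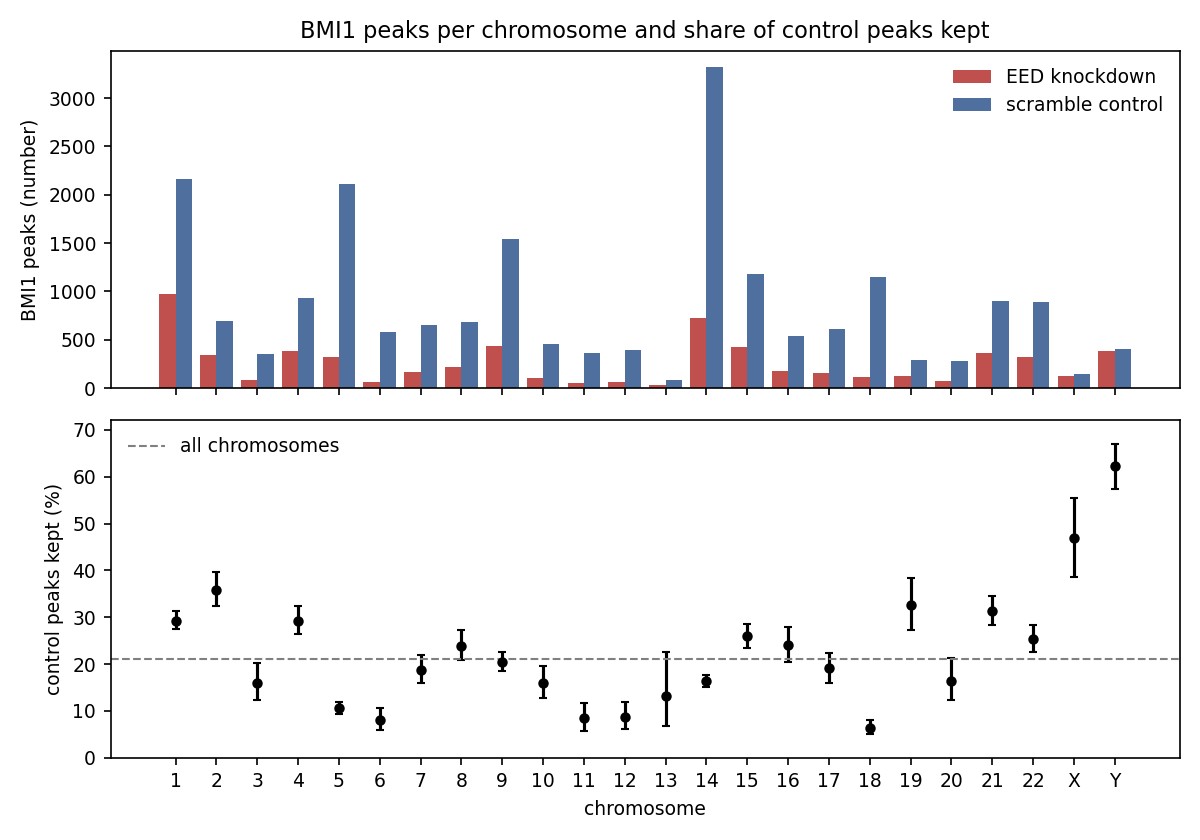
The upper panel gives the number of BMI1 peaks per chromosome in EED knockdown and scramble control. The lower panel gives the percentage of control peaks kept, with 95% Clopper-Pearson intervals and a dashed line at the 21.1% of all chromosomes. Chromosome 14 had the most control peaks (3324), chromosome 18 the lowest share kept (6.41%) and chromosome Y the highest (62.3%).

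BMI1 peaks were unevenly spread over the chromosomes before any comparison. Chromosome 14 carried 11.7% of the knockdown list (729 peaks) and 16.0% of the control list (3324 peaks). It was also rich in peaks of RING1A, with 678 in knockdown cells and 6639 in control cells. RING1B had 27 there in knockdown cells and 793 in control cells. Chromosome 13, by contrast, had 32 knockdown and 83 control BMI1 peaks, and its share of new peaks was high, 20 of 32.

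Within chromosomes 14, 5, 18 and 1 the density of peaks changed in steps, which were marked out after the counts had been seen. On chromosome 14 the first 20 Mb had 228 knockdown and 264 control peaks, with 58.3% of the control peaks kept. No list had a peak up to position 19059425, so all of these lay in the short stretch just beyond it. That stretch was the densest part. From 20 to 60 Mb there were 456 and 2131, with 16.8% kept, and beyond 60 Mb 45 and 929, with 3.34% kept. The part of control peaks on a RING1B peak followed the same order, at 58.3%, 21.4% and 1.72%, while the part on a RING1A peak was 64.8%, 65.5% and 59.5%. Both the loss of BMI1 and its sharing with RING1B thus changed along this chromosome.

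Chromosome 5 had 303 knockdown and 1866 control peaks in its first 50 Mb, with 11.3% of the control peaks kept. The rest had 20 and 251, with 5.98% kept. Chromosome 18 had 94 and 1109 peaks in its first 40 Mb, with 5.50% kept, and 18 and 46 in the rest, with 28.3% kept. In control cells the other antibodies except H3K27me3 stepped with BMI1 on chromosome 18. RING1A had 2242 peaks in the first 40 Mb and 81 beyond it, and the mouse uH2A antibody 1139 and 35. EED had 541 and 46, the rabbit uH2A antibody 617 and 123, and RING1B 85 and 17. H3K27me3 hardly stepped there, with 456 and 342. On chromosome 1, the stretch from 140 to 150 Mb had 707 knockdown and 911 control BMI1 peaks, with 49.2% kept, and the next 10 Mb had 61 and 596, with 7.21% kept. RING1A ran the other way there in control cells, with 855 and then 1417 peaks. The dense stretches lost more or fewer of their peaks from 1 chromosome to the next. What sets these steps was not tested.

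Peaks next to the largest gap in each chromosome were kept far more often. Flanks were defined as the 1 Mb on either side of each chromosome's longest stretch without a peak in any of the 14 lists. On several chromosomes this stretch is not the centromere. On chromosome 4 it began at position 149373276 and on chromosome X at 87076626. Peaks beside the centromeres of such chromosomes therefore count as outside the flanks. The flanks held 1521 knockdown and 1869 control BMI1 peaks, a ratio of 0.814 (0.760 to 0.871). Elsewhere there were 4736 and 18906, a ratio of 0.251 (0.243 to 0.259). In the flanks 57.8% of control peaks were kept, and elsewhere 17.5%. The flanks thus held a small part of the control list and 1081 of the 4387 kept peaks.

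RING1B marked the BMI1 sites that stayed better than any other antibody tested. In control cells 65.0% of the kept BMI1 peaks lay on a RING1B peak, and 7.72% of the lost ones. The difference was 57.3 percentage points (Newcombe interval 55.8 to 58.8). H3K27me3 peaks lay under 25.9% of kept and 6.23% of lost BMI1 peaks, a difference of 19.7 points (18.4 to 21.1). For RING1A the shares were 73.7% and 56.5%, a difference of 17.2 points (15.6 to 18.6), and for EED 23.2% and 15.8%, a difference of 7.44 points (6.09 to 8.83). RING1A was therefore common at both kept and lost sites, and RING1B was common at kept and rare at lost sites.

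The uH2A mark showed no such excess over all peaks. The rabbit uH2A antibody had a peak at 21.5% of kept and 21.4% of lost BMI1 sites, a difference of 0.0422 points (-1.31 to 1.43). The mouse antibody had one at 22.8% of kept and 29.2% of lost sites, a difference of -6.33 points (-7.74 to -4.89). Both values moved with the peaks that entered. Outside clusters of at least 20 the difference was 5.88 points for the rabbit and -3.04 for the mouse antibody, and among control peaks above 200 bp -10.6 and -19.7. The lists of RING1A, RING1B and H3K27me3 share a library set with BMI1, by the culture notes and the naming of chromosomes, and those of EED and uH2A belong to the other set. The set and the antibodies it holds cannot be told apart.

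**Figure D3:**
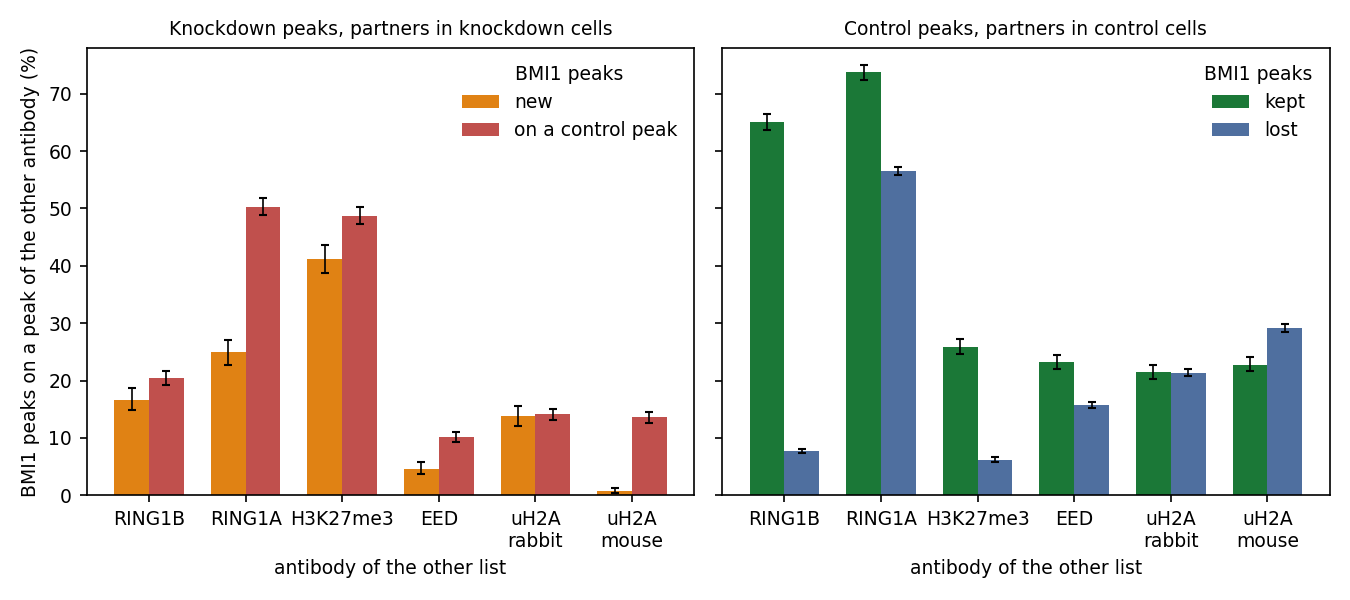
Bars give the percentage of BMI1 peaks that lie on a peak of the other antibody named below, with 95% Clopper-Pearson intervals. The left panel sets new knockdown peaks beside knockdown peaks on a control peak, with the other antibodies in knockdown cells, and the right panel sets kept beside lost control peaks, with the other antibodies in control cells. The widest contrast is that of RING1B at kept (65.0%) and lost (7.72%) control peaks.

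The lists of the other antibodies differ in length, with 5155 control peaks for RING1B and 56011 for RING1A, and a longer list is met more often. With each list limited to its 4522 tallest peaks on chromosomes 1 to 21, an alternative chosen after the data had been seen, the difference was 57.8 points for RING1B and 40.9 for RING1A. It was 11.6 points for EED and 9.02 for H3K27me3. The rabbit uH2A antibody gave 5.11 points (4.01 to 6.27) and the mouse antibody turned to 5.22 points, with an interval above 0. The tallest RING1A sites therefore also held far more kept than lost BMI1 peaks, though the difference remained larger for RING1B.

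Seen from the BMI1 site, 69.3% of the 4118 control peaks on a RING1B peak were kept (67.8 to 70.7), and 9.21% of the 16657 without one (8.77 to 9.66). The difference was present inside and outside clusters, though smaller outside: without clusters of at least 20, the kept minus lost difference was 45.9 points. Of single BMI1 peaks, 54.9% of 266 were kept on a RING1B peak and 4.20% of 6290 without one. In clusters of at least 20 the shares were 75.9% and 19.0%.

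The difference was also present within each length class up to 1000 bp. Among control peaks of 75 bp, 27.7% of 130 were kept on a RING1B peak (20.2 to 36.2) and 2.23% of 4483 without one (1.82 to 2.71). At 175 to 250 bp the shares were 66.5% on a RING1B peak and 16.0% without, and at 525 to 1000 bp 94.6% and 67.3%. Beyond 1000 bp 98.5% of the peaks on RING1B were kept, and the 3 peaks without RING1B were all kept. RING1B itself had a peak at 21.5% of kept BMI1 sites and 0.531% of lost sites in knockdown cells.

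**Figure D4:**
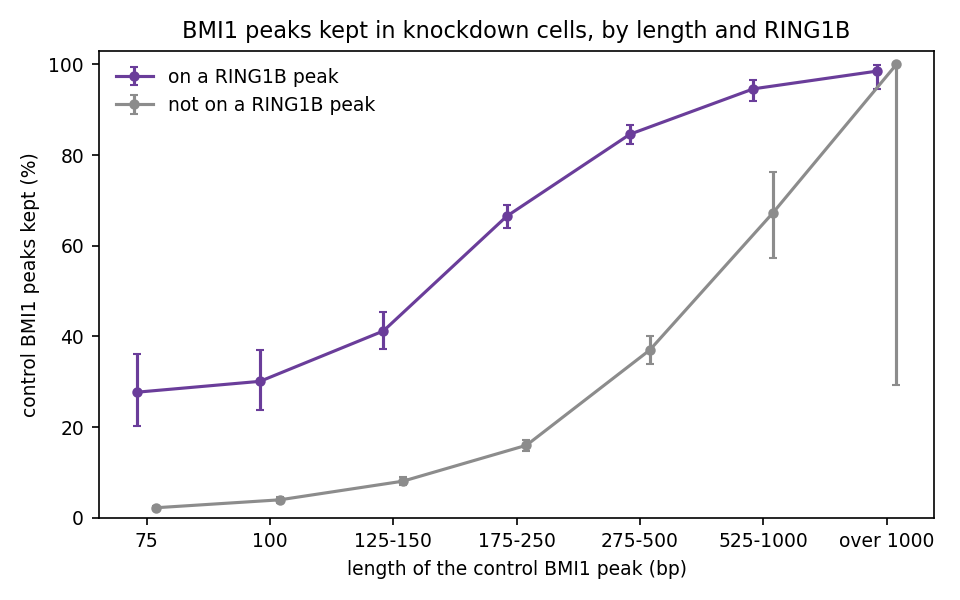
Points give the percentage of control BMI1 peaks kept in knockdown cells, by length of the control peak, for peaks on a RING1B peak of control cells and for those without one, with 95% Clopper-Pearson intervals. The RING1B points lie above the others in the 6 classes up to 1000 bp, and the last class without RING1B holds 3 peaks.

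RING1A behaved otherwise once length was held. At 75 bp, 2.45% of BMI1 peaks on a RING1A peak were kept and 3.28% of those without one, and at 175 to 250 bp 29.3% and 37.2%. In 4 classes cut at the quartiles of control peak length, the difference between kept and lost peaks for RING1A lay between -14.9 and -0.486 points. The overall difference of 17.2 points for RING1A therefore does not hold within length classes, and the cause was not tested. These classes used the full list of 56011 RING1A peaks. The list limited to the tallest RING1A peaks was not split by length. For EED the difference was 7.84 points at 75 to 100 bp and -3.17 points above 200 bp.

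Combinations of the marks at control BMI1 sites ordered the share kept further. The 864 sites with RING1A, RING1B and H3K27me3 kept 85.0% (82.4 to 87.3), and the 2339 with both RING proteins and no H3K27me3 kept 64.4% (62.5 to 66.4). The 915 sites with RING1B and no RING1A kept 66.9%. Of these, the 263 with H3K27me3 kept 89.0% (84.5 to 92.5), and the 652 without it 58.0% (54.1 to 61.8). In both pairs the sites with H3K27me3 were also longer and more often in clusters of at least 20. With both RING proteins the medians were 300 and 250 bp, and the shares in such clusters 58.3% and 54.7%. With RING1B and no RING1A they were 175 and 150 bp, and 61.2% and 53.4%. The most common combination was RING1A without RING1B, 9291 sites or 44.7% of the list, of which 10.7% were kept (10.0 to 11.3). The 7366 sites with neither RING protein kept 7.37% (6.79 to 7.99). All 3203 sites with both RING proteins kept 70.0% (68.3 to 71.5), an interval that overlaps that of RING1B without RING1A (63.7 to 69.9). Sites with RING1A alone exceeded those with neither beyond the intervals, but they were also longer (median 125 and 100 bp) and more often in clusters of at least 20 (17.7% and 11.0%). As given above, BMI1 peaks on RING1A were kept less often at 75 bp and at 175 to 250 bp.

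Within sites that had no RING1B, H3K27me3 went with a higher share kept. Of the 388 sites with H3K27me3 and neither RING protein, 20.4% were kept (16.5 to 24.7), and of the 6978 with none of the marks, 6.65% (6.08 to 7.26). With RING1A alone the shares were 14.1% of 644 with H3K27me3 (11.5 to 17.1) and 10.4% of 8647 without it (9.77 to 11.1). Intervals of this last pair did not overlap, but the step was small beside that of RING1B. Sites with H3K27me3 were also longer and more often in clusters of at least 20. With neither RING protein the medians were 125 bp with H3K27me3 and 100 bp without, and the shares in such clusters 24.7% and 10.2%. With RING1A alone they were 150 and 125 bp, and 20.2% and 17.5%.

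In knockdown cells the partners of BMI1 peaks changed. H3K27me3 lay under 46.8% of knockdown BMI1 peaks and 10.4% of control BMI1 peaks, each against the H3K27me3 list of the same cells, although the H3K27me3 list was far shorter in knockdown cells. RING1A lay under 44.0% of knockdown and 60.1% of control BMI1 peaks, and RING1B under 19.5% and 19.8%. EED lay under 8.82% of knockdown and 17.3% of control BMI1 peaks. For the mouse uH2A antibody the shares were 10.4% in knockdown cells and 27.8% in control cells, and for the rabbit antibody 14.0% and 21.4%. H3K27me3 was thus the 1 partner of the 6 whose share was higher in knockdown cells. These shares compare different sets of BMI1 sites. Of the knockdown BMI1 peaks themselves, 51.4% lay on a RING1B peak of control cells and 19.5% on one of knockdown cells. For RING1A these shares were 58.1% and 44.0%, and for H3K27me3 22.6% and 46.8%.

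Over the whole knockdown list, new BMI1 peaks mostly had fewer partners than knockdown peaks on a control site. RING1A lay under 24.9% of new peaks and 50.3% of the others, a difference of -25.5 points (-28.0 to -22.9). H3K27me3 lay under 41.2% of new peaks and 48.7% of the others (-7.57 points, -10.4 to -4.73), and RING1B under 16.7% and 20.4% (-3.63 points, -5.76 to -1.40). The RING1B difference did not hold by cluster size. Outside clusters of at least 20 its shares were 12.5% of new peaks and 11.6% of the others. In such clusters they were 28.7% and 33.2%, with overlapping intervals. New peaks were also shorter, with a median of 125 bp against 175 bp for the others. The mouse uH2A antibody had a peak at 12 of 1565 new sites (0.767%) and at 13.6% of the others. The rabbit antibody had one at 13.8% and 14.1%, a difference whose interval includes 0 (-2.22 to 1.73).

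H3K27me3 was more common at new BMI1 peaks in clusters. Of the 411 new peaks in clusters of at least 20, 65.2% lay on a knockdown H3K27me3 peak (60.4 to 69.8), and of the 1154 other new peaks 32.6% (29.9 to 35.4). For BMI1 peaks on a control site the shares were 69.2% in such clusters and 34.7% outside them. Between new peaks and those on a control site the intervals overlapped, both in such clusters and outside them.

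The tallest kept peaks outside the flanks were chr1:91852751-91853125 and chr4:49151251-49151650. The peak on chromosome 1 had a height of 2576 in knockdown cells and 4075 in control cells, and carried peaks of all 6 other antibodies in both conditions. The peak on chromosome 4 had heights of 2785 in knockdown cells and 3951 in control cells, with RING1A, RING1B and H3K27me3 in both. In the flanks the tallest was chr10:42599426-42600275, with a height of 9166 in knockdown cells and 12653 in control cells and all 6 other antibodies in both. These heights stand far above the medians of 67.0 in knockdown cells and 68.9 in control cells.

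The tallest lost peak outside the flanks was chr17:41381576-41382300, 725 bp long and 341 high, with RING1A and RING1B in control cells. The nearest knockdown BMI1 peak was 17400 bp away. Another, chr2:230045476-230045600 with a height of 250, was 7994200 bp from the nearest knockdown peak and had RING1A and RING1B in control cells and only H3K27me3 in knockdown cells. The longest lost peak, chr7:102254926-102255975 with 1050 bp, lay 400 bp from a knockdown peak, within the chromosome 7 cluster described above. Long losses on chromosome 14, at chr14:33257726-33258725 and chr14:51560351-51561275, carried 5 of the 6 other antibodies in control cells and 2 in knockdown cells. Lost sites thus included long, shared peaks, though such losses were few.

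The tallest new peak was chr4:49512101-49512375, 275 bp long and 525 high, 1000 bp from the nearest control BMI1 peak. It carried RING1B and H3K27me3 peaks in both conditions, and RING1A, EED and rabbit uH2A in knockdown cells alone. The new peak chr18:106601-106975, 465 high, lay 375 bp from a control peak. RING1B and H3K27me3 peaks were also present at both in control cells, so the sites were new for BMI1 and not for those antibodies. The longest new peak outside the flanks was chr5:4080476-4081100 with 625 bp, with EED and rabbit uH2A peaks in both conditions. Of the same length, chrX:58573426-58574050 lay 1850575 bp from the nearest control BMI1 peak and had RING1B and H3K27me3 in both conditions.

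The 100-kb windows with the longest control BMI1 cover outside the flanks changed little in number of peaks. At chr19:36700001-36800000 BMI1 peaks covered 17.7 kb in knockdown cells and 28.0 kb in control cells, with 53 and 51 peaks. At chr1:161400001-161500000 they covered 23.5 kb in knockdown cells and 26.6 kb in control cells, with 37 and 43 peaks. At chr19:37700001-37800000 the cover was 16.5 kb and 21.7 kb, with 47 and 44 peaks. In the chromosome 19 windows H3K27me3 had 43 knockdown and 0 control peaks in the first, and 45 and 5 in the second. The remaining windows of the 5 overlap the clusters on chromosomes 21 and 4 named above.

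HOX gene clusters, classic Polycomb targets that encode body-axis transcription factors, held little BMI1. Approximate hg19 windows of 900 kb in all around HOXA, HOXB, HOXC and HOXD held 0 knockdown and 4 control BMI1 peaks. Of these, 3 lay in the HOXA window and 1 in the HOXC window, and all 4 were lost, beside 78.9% lost among all control BMI1 peaks and more among short ones. The nearest knockdown BMI1 peak was between 1786425 and 2138325 bp away. They were 75 to 250 bp long, and none lay on a RING1B or H3K27me3 peak. In the same windows H3K27me3 had 0 knockdown and 84 control peaks, and RING1A 0 and 49. With 4 peaks and so high a share lost in the whole list, nothing particular to these windows can be read for BMI1.

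BMI1 had more peaks than RING1A and RING1B in knockdown cells, and stood between them in control cells. The knockdown to control ratio was 0.301 for BMI1 (0.293 to 0.310), 0.337 for RING1B (0.319 to 0.356) and 0.0727 for RING1A (0.0704 to 0.0751). Of control peaks over 500 bp, BMI1 kept 91.2% of 661 (88.8 to 93.3), RING1B 53.0% of 266 (46.8 to 59.1) and RING1A 42.1% of 1178 (39.3 to 45.0). Among long peaks BMI1 was therefore the most often kept of these PRC1 proteins, with intervals that do not overlap. Over all control peaks BMI1 kept 21.1%, RING1B 20.7% and RING1A 4.07%. The knockdown lists to be met held 6257 peaks for BMI1, 1739 for RING1B and 4072 for RING1A, and a longer list is met more often. At 75 bp the shares were 2.95% for BMI1, 5.25% for RING1B and 0.443% for RING1A.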

How the data were processed

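BMI1 peak lists of 2 libraries were analysed, 1 from knockdown and 1 from control cells, with the lists of 6 other antibodies as partners. The submitters' processing notes name Bowtie and the hg19 build. Their settings, and any input library behind the peak calls, are not given in the sources. HPeak, a peak caller, is named on the lists deposited by the authors, 1 per library. The lists have no header and give chromosome, start, end, length, an offset read as the summit, a height and a score. The deposited height was treated as a signal, not normalised between libraries. The deposited score is negative and of a definition not stated in any source, and no comparison used it. Length is in bp as deposited. Depth is unknown, and the number of peaks limits precision.

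Overlap meant at least 1 bp. Intervals are at the 95% level, and no p-value was computed with 1 library per group. Flanks, clusters and length classes are defined where they first appear. Named regions were the 5 tallest and 5 longest kept, lost and new peaks outside the flanks, the 3 tallest of each within them, 5 windows of 100 kb and 4 HOX windows placed approximately from general knowledge, of which a selection is given. Members, lists and rules were chosen with earlier results of these data known. Alternatives were stricter overlap or height, peaks within 1000 bp, autosomes, equal numbers, flanks and length classes. Overlap counting was tested on random subsets of the control BMI1 list, set against that same list, and recovered 3 of 3 planted shares. Identical intervals always overlap, so this checks the code and not the results. Computations used Python 3.11.15, numpy 2.4.6, pandas 2.3.3, scipy 1.17.1 and matplotlib 3.10.9.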

Additional observations from a re-analysis of the deposited data

How the results depend on the processing

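Of 80 alternative values, 13 stayed within the interval of the reported value, 60 moved outside it in the same direction or from a value whose interval includes 0, and 7 changed sign. The ratio of peak numbers stayed below 1 throughout: 0.281 with heights above 0, 0.261 with peaks within 1000 bp merged, 0.261 for tall peaks (no lower than the median control height), 0.285 on autosomes, 0.251 outside the flanks and 0.357 by covered length. Chosen after the data had been seen, it was 0.246 outside clusters of at least 20 peaks and 0.359 without chromosomes 5, 14 and 18.

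The share of control peaks kept was 16.9% with an overlap of at least 50% of the peak, 29.2% with a peak within 1000 bp, 19.9% with heights above 0, 20.1% on autosomes, 17.5% outside the flanks, 13.6% outside large clusters and 25.0% without chromosomes 5, 14 and 18. It was 48.5% for the tallest control peaks in the number of the knockdown peaks, over 1.5 times the reported share, because fewer and taller peaks entered. The share of new knockdown peaks was 27.9% with the overlap of at least 50%, 16.0% within 1000 bp, 15.4% for tall peaks and 29.3% outside large clusters. It was 46.6% against the tallest control peaks. That last value is inflated, because control peaks on chromosomes 22, X and Y have no height and did not enter. All 823 knockdown peaks on those chromosomes therefore counted as new.

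The difference between kept and lost peaks on RING1B was 49.1 points with the overlap of at least 50%, 53.4 outside the flanks, 45.9 outside large clusters, and 25.7, 33.0, 44.2 and 54.2 in 4 length classes from short to long, which hold 8178, 2849, 5404 and 4344 peaks because of ties. For H3K27me3 the same alternatives gave 15.7, 17.3 and 15.1 points, then 13.2, 12.0 and 14.8 in the 3 shorter classes, and 9.02 with equal lists. RING1A gave 19.3 points outside the flanks, 19.1 outside large clusters and 40.9 with equal lists, and changed sign in the length classes (-7.14, -14.9, -10.9 and -0.486). EED gave 4.48 points with the overlap of at least 50%, 9.31 with heights above 0, 9.50 outside the flanks, 12.0 outside large clusters, 11.6 with equal lists and 5.14 at 125 bp, and changed sign in the longer classes (-1.87 and -3.17). Mouse uH2A changed sign to 5.22 points with equal lists, and lay between -20.0 and -8.73 in the length classes. Rabbit uH2A lay between -10.6 and 5.88 over all its alternatives. The cause was not tested. No paired analysis was possible because each group has 1 library. Without read totals or an input library, a lost peak may be a weaker one, and these lists do not separate the cases.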
